A study of Mus musculus with 22 samples.

Results

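De novo lipogenesis, the synthesis of fatty acids from acetyl-CoA, was followed in brown adipose tissue (BAT) through 10 genes: 7 enzymes (*Acly*, *Acaca*, *Fasn*, *Elovl6*, *Scd1*, *Scd2* and *Me1*) and 3 regulators (*Srebf1*, *Mlxipl* and *Thrsp*). They were chosen by name as enzymes and regulators of the pathway, with earlier results of these data known. They were matched by symbol to the gene identifiers of both count tables, and all 10 were found among the 55487 identifiers listed. All 10 also passed the filter on low counts in each table, where 17869 and 18899 genes were tested. RNA of interscapular BAT from 22 mice was sequenced, with 1 library per mouse. The untreated cohort held 5 wild-type (CPEB2-WT, here WT) and 5 knockout (CPEB2-KO, here KO) mice of 21 to 25 weeks by the labels. The AAV cohort crossed genotype with virus, AAV-GFP or AAV-PRDM16, with 3 mice in each of the 4 groups (written as WT + AAV-GFP and so on), aged 25 weeks, whose BAT had received 30 µl of virus at 16 weeks. All mice were C57BL/6, housed with chow freely available and given as male in the labels. Untreated mice were kept without food for some hours before their BAT was taken, and no such step is given for the AAV mice in the sources used here. The KO was global, so CPEB2, an RNA-binding protein of translational control, was lost from other tissues as well as BAT, and the adult KO mice were those that had survived the early postnatal period. The virus, packaged as AAV2/8, carried GFP or flag-tagged PRDM16, a transcription factor of brown fat identity. The 2 cohorts were separate tables and are compared only within each.

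In this pathway, ATP-citrate lyase (*Acly*) cleaves exported citrate to acetyl-CoA, acetyl-CoA carboxylase (*Acaca*) makes malonyl-CoA from it, and fatty acid synthase (*Fasn*) builds palmitate with NADPH that malic enzyme (*Me1*) helps to supply. *Elovl6* lengthens palmitate to stearate, and the stearoyl-CoA desaturases (*Scd1*, *Scd2*) place a double bond. SREBP-1 (*Srebf1*) and ChREBP (*Mlxipl*) drive transcription of these genes in response to insulin and to sugar, *Thrsp* (Spot 14) is a lipogenic protein regulated by thyroid hormone and feeding, and brown fat is known as a tissue in which the pathway can be very active.

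Libraries held 55320927 to 162721202 counts in the untreated and 61636889 to 143005309 in the AAV cohort, and the lowest count of any member in any library was 1351 (*Scd2*), so that counting error was small beside the spread between mice. P-values set a difference between groups against that spread between mice. The brown fat markers *Ucp1* and *Cidea* were at or above 1009 CPM in every library (CPM, counts per 1e6 of the library total after TMM scaling). *Cpeb2*, the deleted gene, was at 7.69 to 14.3 CPM in untreated WT mice and at 2.10 to 5.78 CPM in 4 untreated KO libraries, whereas the library labelled KO mouse 1 held 11.7 CPM, inside the WT range. After virus, *Cpeb2* was at 10.5 to 14.0 CPM in WT and 4.33 to 5.55 CPM in KO mice. *Prdm16* was at 23.9 to 40.2 CPM with AAV-GFP. With AAV-PRDM16 it was at 45.8 to 122 CPM in WT (95.6 ± 43.1, SD, n = 3) and 69.2 to 128 CPM in KO mice. The lowest WT + AAV-PRDM16 mouse was thus little above the AAV-GFP range. Against the label of male mice, the summed Y-linked transcripts were at or below 1.16 CPM in 6 of the 10 untreated libraries, those labelled WT mice 3 and 5 and KO mice 1, 3, 4 and 5, and at or above 77.0 CPM in the other 4. *Xist*, the transcript of the inactive X chromosome in females, was at 104 to 305 CPM in those 6 libraries and at 14.0 CPM or less in the other 4. The libraries with the female pattern were thus 2 of 5 WT and 4 of 5 KO. The other 4 were not alike: *Xist* was at 14.0 CPM in WT mouse 4, beside Y-linked transcripts at 116 CPM. It was at 1.65 CPM in KO mouse 2 and at 0.088 and 0.031 CPM in WT mice 1 and 2. All 12 AAV libraries held Y-linked transcripts at 154 CPM or more.

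The start regions of 3 members are shown. The first 2 belong to enzymes whose transcripts varied widely from mouse to mouse and the third to a regulator that varied less than these. Each line gives the 250 bases before the RefSeq start (build GRCm38.p6), read 5′ to 3′ on the strand of the gene, with capitals for matches, on either strand, of CCAAT (the CCAAT box), of the E-box CACGTG and of the GC box motif GGGCGG. They lie at chr11:120824548-120824797 (minus strand) for *Fasn*, chr11:100528001-100528250 (minus strand) for *Acly* and chr5:135089640-135089889 (plus strand) for *Mlxipl*.
Fasn: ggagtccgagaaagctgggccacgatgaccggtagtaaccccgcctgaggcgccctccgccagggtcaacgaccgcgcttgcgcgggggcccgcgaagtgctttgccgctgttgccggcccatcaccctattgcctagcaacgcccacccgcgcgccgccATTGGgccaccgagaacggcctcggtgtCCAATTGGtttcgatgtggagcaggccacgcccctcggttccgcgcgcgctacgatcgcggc
Acly: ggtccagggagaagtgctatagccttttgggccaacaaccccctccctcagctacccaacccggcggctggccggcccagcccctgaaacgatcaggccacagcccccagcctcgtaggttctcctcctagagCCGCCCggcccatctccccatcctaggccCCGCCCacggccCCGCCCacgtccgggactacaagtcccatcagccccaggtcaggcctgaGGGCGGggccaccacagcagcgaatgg
Mlxipl: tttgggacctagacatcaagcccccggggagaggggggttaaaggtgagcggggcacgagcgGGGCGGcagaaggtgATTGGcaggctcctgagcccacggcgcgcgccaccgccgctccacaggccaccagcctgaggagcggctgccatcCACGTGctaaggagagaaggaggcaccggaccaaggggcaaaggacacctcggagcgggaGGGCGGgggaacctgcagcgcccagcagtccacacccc
The *Fasn* window held 3 matches of CCAAT, of which one and its reverse complement overlapped in a single run. *Acly* held 4 matches of GGGCGG and *Mlxipl* held 2, with 1 CCAAT and 1 CACGTG. Of all 32851 windows of this length, 33.8% held CCAAT, 6.02% CACGTG and 32.7% GGGCGG, so only the CACGTG match was of a letter run present in few of them. A further search for TCACNCCAC, a sterol regulatory element, which 1.05% of windows held, matched a second *Mlxipl* window at chr5:135106641-135106890 only among the 12 windows that 8 members had. *Scd1* and *Scd2* had no entry. No match of TATAAA was found in these 12 windows, against 12.4% of all.

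The pathway's transcripts were abundant. Together the 10 members took between 1.18% and 7.80% of a library's counts in the untreated cohort and between 2.67% and 9.72% in the AAV cohort. Per kilobase of exon, the mean level in the untreated cohort ran from *Scd1* at 4393 ± 3146 CPM per kilobase (SD, n = 10) through *Fasn* at 1113 ± 852 and *Thrsp* at 616 ± 335 to *Acly* at 169 ± 183. *Me1*, *Acaca* and *Elovl6* followed at 104 ± 61.0, 86.4 ± 72.4 and 82.8 ± 65.9, and then came *Mlxipl* at 44.4 ± 8.08, *Srebf1* at 29.3 ± 13.5 and *Scd2* at 11.3 ± 8.37 CPM per kilobase. *Scd1* was above *Fasn* in 9 of 10 libraries and *Thrsp* above *Acly* in 10, while *Acly* against *Me1* and *Acaca* against *Elovl6* kept their order in only 6. The AAV cohort had the same first 4 genes in the same order, with *Scd1* at 9284 ± 3279.8 and *Scd2* last at 24.8 ± 13.9 CPM per kilobase (n = 12), and *Acaca* against *Me1* kept its order in 6 of 12. *Scd1* ranked 22nd of 17852 genes per kilobase in the untreated and 18th of 18872 in the AAV cohort, and *Fasn* 39th and 29th.

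*Acly*, which supplies cytosolic acetyl-CoA, had the widest range of the enzymes. In untreated WT mice 1 to 5 it was at 2419, 2833, 129, 963 and 194 CPM, and in the libraries labelled KO mice 1 to 5 at 507, 264, 892, 162 and 554 CPM. WT mice 1 and 2 stood far above every other mouse and WT mice 3 and 5 among the lowest. This was a range of 21.9-fold inside 1 genotype, so the KO values lay within the WT range. WT mice 3 and 5 were the 2 WT libraries with the female pattern of Y-linked transcripts and *Xist*. *Fasn*, *Acaca*, *Me1*, *Scd1* and *Scd2* were also lower in these 2 than in WT mice 1, 2 and 4, while *Elovl6* overlapped. In KO libraries *Acly* was at 162 to 892 CPM with that pattern and at 264 CPM in KO mouse 2 without it. The part of this pattern in the range was not tested. With AAV-GFP, *Acly* was at 2753, 1354 and 1084 CPM in WT and 3310.0, 3671 and 268 CPM in KO mice. With AAV-PRDM16 it was at 399, 2580.2 and 1857 CPM in WT and 1072, 2679 and 559 CPM in KO mice. All 4 groups overlapped, and the 2 lowest mice were KO + AAV-GFP mouse 3 and WT + AAV-PRDM16 mouse 1.

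*Acaca*, the enzyme of the committed step, followed the same mice. Untreated WT mice were at 3559.6, 3789, 391, 1251 and 439.7 CPM and untreated KO libraries at 1068, 536, 1731, 707 and 1277 CPM. Its KO values again fell between the high and the low WT mice. With virus it ran from 511 CPM in KO + AAV-GFP mouse 3 to 4376 CPM in mouse 2 of that group.

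*Fasn*, the synthase, was at 20383, 22899, 2933, 8576 and 3144 CPM in untreated WT mice and at 7808, 2781, 18846, 6844 and 27672 CPM in untreated KO libraries. Here the highest mouse was KO mouse 5, not a WT mouse, and both genotypes spanned most of the range. In WT mice with virus *Fasn* was at 21732, 15601 and 14028 CPM with AAV-GFP and 11539, 20155 and 15802 CPM with AAV-PRDM16. KO mice with virus were at 21983, 24449.5 and 1842 CPM with AAV-GFP and at 11486, 24396 and 3271 CPM with AAV-PRDM16. Mouse 3 of each KO group was thus far below every WT mouse of the cohort and the others of its own group, and KO + AAV-GFP mouse 3 lay 13.3-fold below mouse 2 of its group.

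*Elovl6*, the elongase, was at 1113, 1432, 245, 307 and 629 CPM in untreated WT mice and at 258, 112, 478, 478 and 273 CPM in untreated KO libraries. All 5 KO values were below the 3 highest WT values, and 4 of the 5 were above the lowest WT value. WT mice with virus sat between 639.9 and 985 CPM. The 6 KO mice with virus lay on both sides of that band. They were at 1344, 1376 and 173 CPM with AAV-GFP and 621, 1249.6 and 282 CPM with AAV-PRDM16, with the 621 just below it. The band was read from these data, and the share of all genes with such a pattern was not counted. Averaged over both viruses the log2 fold change of KO against WT was 0.05.

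*Scd1*, the main desaturase of fat, was at 48456, 44877, 8524, 21191 and 7993 CPM in untreated WT mice and 31299, 10671, 23053, 8768 and 10094 CPM in untreated KO libraries. WT mice 1 and 2 were again highest and WT mouse 5 lowest. After virus *Scd1* was at 28503 to 57108 CPM in WT mice and at 18434 to 70059 CPM in KO mice, with the lowest and the highest value in the same group, KO + AAV-GFP. *Scd2*, its paralog, ran from 19.8 to 146 CPM in untreated and from 40.6 to 268 CPM in AAV mice. *Me1*, the NADPH-supplying malic enzyme, ran from 164 to 818 CPM and from 156 to 1205 CPM. For both of these the highest untreated mouse was WT mouse 2, and the lowest and highest AAV mice were KO + AAV-GFP mice 3 and 2.

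Over all mice of a cohort, *Srebf1* and *Mlxipl* had narrower fold ranges than the enzymes, whereas *Thrsp* followed the enzymes in the AAV cohort. *Srebf1* was at 167, 227, 81.5, 153 and 130.2 CPM in untreated WT mice and at 70.8, 113, 240.0, 153 and 315 CPM in untreated KO libraries. In the AAV cohort it stayed between 128 and 211 CPM over all 12 mice, a range of 1.64-fold where *Acly* spanned 13.7-fold. *Mlxipl* ran from 166 to 301 CPM in untreated and from 169 to 311 CPM in AAV mice, 1.81-fold and 1.84-fold. *Thrsp* was at 1155, 1501, 877, 1117 and 1139 CPM in untreated WT mice and at 599, 618, 2359.7, 1251 and 2874 CPM in untreated KO libraries. WT mice 1 and 2, the 2 highest for 6 of the enzymes, ranked 5 and 3 of 10 for *Thrsp*, and KO mouse 5, highest for *Thrsp*, *Fasn* and *Srebf1*, had *Acly* at 554 and *Scd1* at 10094 CPM. With AAV-GFP *Thrsp* was at 1263, 1023 and 1106 CPM in WT and 1335, 1301 and 425 CPM in KO mice. With AAV-PRDM16 it was at 685, 1477 and 1355 CPM in WT and 603, 1193 and 687 CPM in KO mice, and its lowest mouse, KO + AAV-GFP mouse 3, was that of the enzymes.

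**Figure D1:**
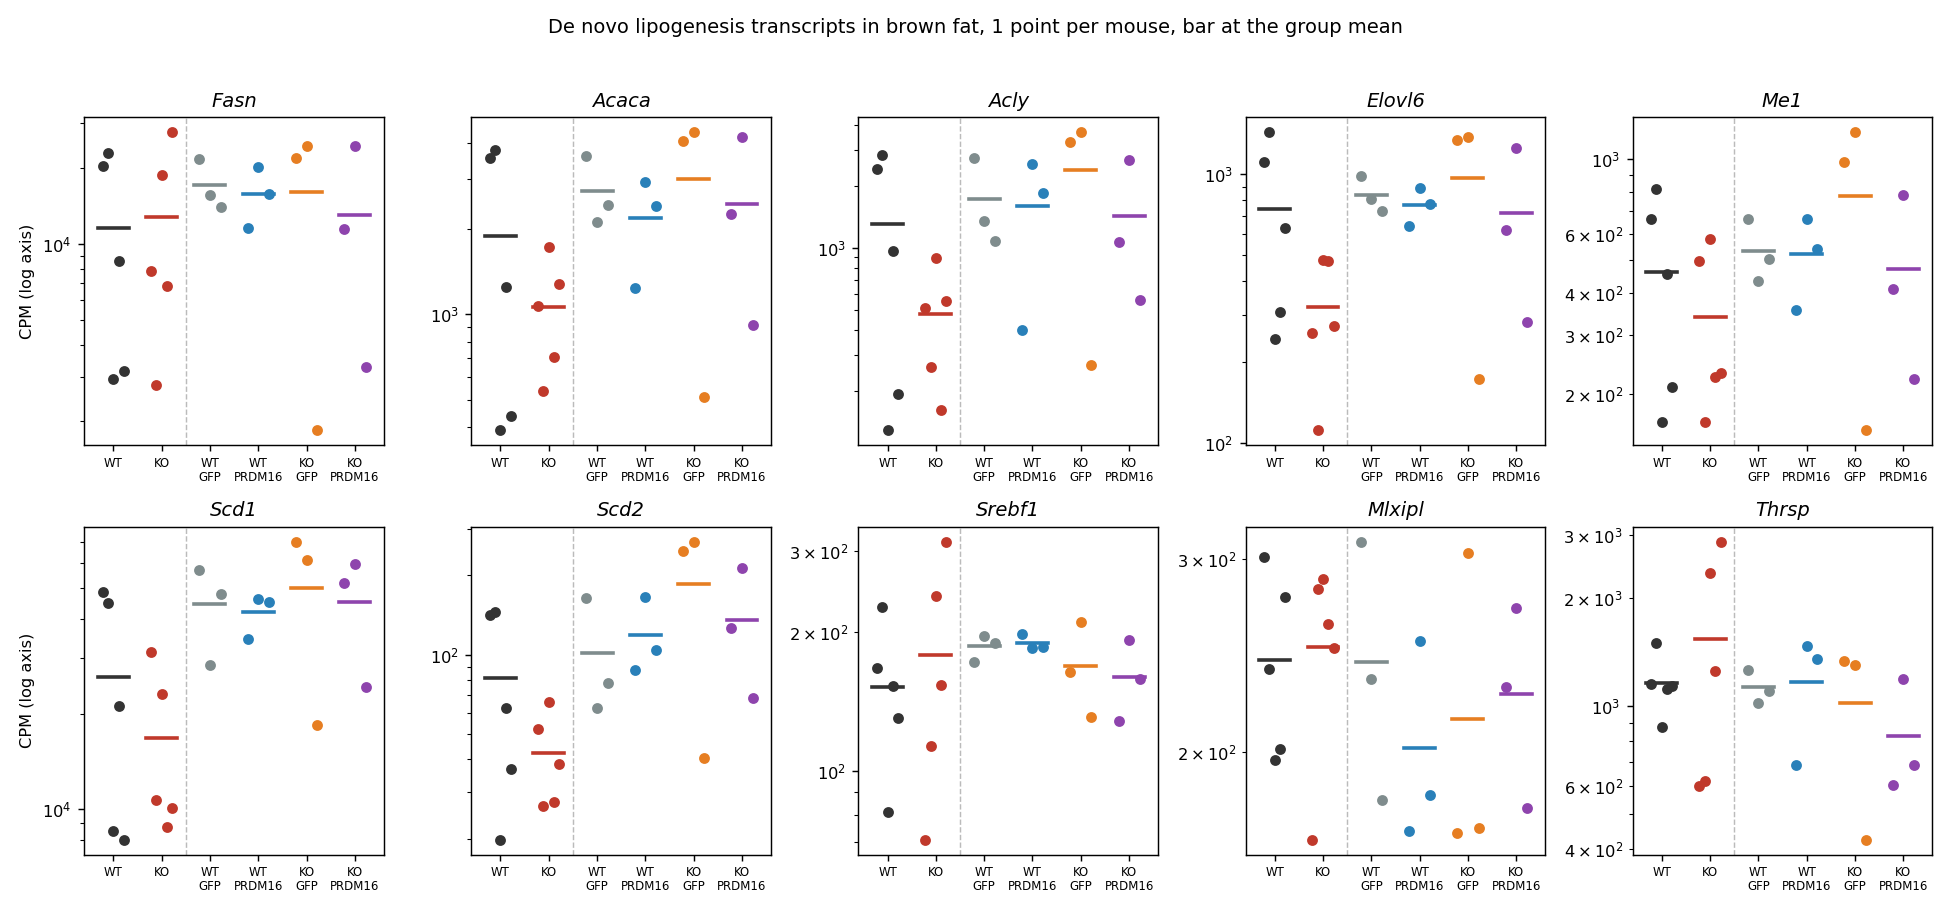
CPM of each member on a log axis, 1 point per mouse in the order of the mouse numbers, with a bar at the group mean; the dashed line separates the untreated groups (left) from the AAV groups (right). Groups overlap in every panel, and KO + AAV-GFP mouse 3 is the lowest AAV mouse for 8 of the 10 members.

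KO + AAV-GFP mouse 3 was lowest of the 12 AAV mice for 8 members (*Fasn*, *Acaca*, *Acly*, *Elovl6*, *Me1*, *Scd1*, *Scd2* and *Thrsp*), and mouse 2 of the same group was highest for 7. In KO + AAV-GFP mouse 3 and KO + AAV-PRDM16 mouse 3 no member was above the mean of the cohort, and in KO + AAV-GFP mouse 2, KO + AAV-PRDM16 mouse 2 and WT + AAV-PRDM16 mouse 2 all 10 were. KO + AAV-GFP mouse 3 also had the highest summed macrophage markers of the cohort (10 genes, 412 CPM, against 47.1 to 173 CPM in the other 11 mice) and the highest summed lymphocyte markers (10 genes, 25.6 CPM against 1.09 to 16.6 CPM). KO + AAV-PRDM16 mouse 3 had 101 CPM and 2.62 CPM of them, inside the range of the others, and still low enzyme levels. The part of these cells in the levels was not tested. In bulk tissue, fewer adipocytes and less of a transcript per adipocyte cannot be told apart.

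In the untreated cohort 9 members were above the cohort mean in each of WT mice 1 and 2, none in WT mouse 3 and all 10 in KO mouse 3. Summed markers of mature skeletal muscle (18 genes) were at 4135, 7334, 8441 and 1415 CPM in the libraries labelled WT mouse 3 and KO mice 1, 2 and 5 and at 47.0 to 252 CPM in the other 6. *Acta1* and *Ckm*, both on that list, were above 0 in all 10 untreated libraries. In the AAV cohort *Ckm* was at 0 counts in 9 of the 12 libraries and *Acta1* in 1 of the 12. With the muscle marker score as a covariate the members' median log2 fold change of KO against WT was -0.50, beside -0.55 without it.

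**Figure D2:**
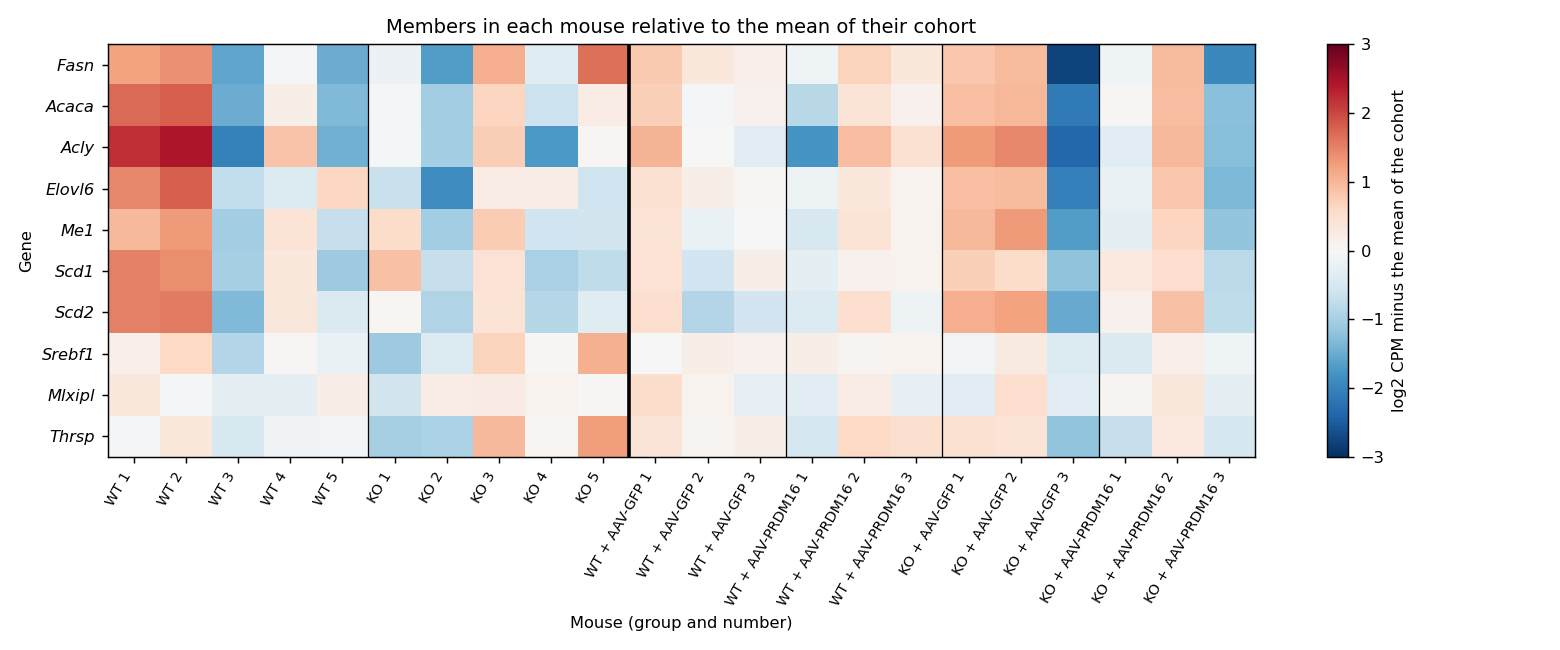
log2 CPM of each member in each of the 22 mice, minus the mean of that member over its cohort (colour scale from -3 to 3); the thick line separates the cohorts and thin lines the groups. In the 2 KO mice numbered 3 of the AAV groups all members are below the mean, the enzymes differ in sign in untreated KO mouse 5, and *Mlxipl* stays between -0.54 and 0.53.

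The enzymes largely varied together across mice, with exceptions among the untreated. KO mouse 5 had *Fasn* 1.65 log2 units above its cohort mean but *Scd1*, *Elovl6* and *Me1* at -0.76, -0.59 and -0.56 relative to theirs. WT mouse 5 had *Elovl6* at 0.62 but *Fasn* at -1.49 and *Acly* at -1.45, and KO mouse 4 had *Elovl6* at 0.22 and *Acly* at -1.71. Pearson's r between a member's log2 CPM and the mean standardised profile of the other 9 was 0.94 for *Acaca*, 0.89 for *Acly* and *Scd2*, 0.87 for *Fasn*, 0.81 for *Me1* and 0.70 for *Elovl6* and *Scd1* over the 10 untreated mice. It was 0.66 for *Srebf1*, 0.51 for *Thrsp* and 0.25 for *Mlxipl*. Over the 12 AAV mice r was 0.86 to 0.98 for the 7 enzymes and 0.87 for *Thrsp*, against 0.55 for *Srebf1* and 0.58 for *Mlxipl*. These are descriptions over libraries that share the same scaling, and each point is 1 mouse of any group. The proportions were not fixed: the ratio of *Fasn* to *Acly* CPM was 8.08 in WT mouse 2 and 49.9 in KO mouse 5, and 28.9 in WT + AAV-PRDM16 mouse 1 against 5.85 to 12.9 in the other AAV mice.

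The spread between mice of a group was large for transcripts of this abundance. The pooled SD of log2 CPM within groups was 1.36 for *Fasn* and 1.60 for *Acly* in the untreated cohort. The median there over the 930 genes with a mean of at least 100 CPM was 0.52, and the 7 enzymes lay at percentiles 90.4 to 98.1. Each untreated group held libraries with and without the female pattern, which this SD does not separate. In the AAV cohort, where that median was 0.16 over 972 genes, the pooled SD was 1.31 for *Fasn*, 1.45 for *Acly*, 1.11 for *Acaca* and 0.70 for *Scd1*. *Acly* had the highest SD of all 972, and the 7 enzymes lay at percentiles 98.6 to 100. Much of this lay in the KO groups of the AAV cohort, in which mouse 3 of each group was low. Within the WT groups alone the SD was 0.37 for *Fasn*, 0.23 for *Elovl6* and 1.13 for *Acly*, against 1.82, 1.43 and 1.71 within the KO groups. The medians over the 972 genes were 0.13 and 0.18. In the untreated cohort the fold range was instead wider in WT than in KO for every enzyme but *Fasn*. It was 21.9 against 5.51 for *Acly* and 9.69 against 3.23 for *Acaca*, but 7.81 against 9.95 for *Fasn*. Without KO + AAV-GFP mouse 3 it was 0.83 for *Fasn*, 0.72 for *Acaca*, 0.60 for *Elovl6* and 1.05 for *Acly*, and the enzymes lay at percentiles 97.4 to 100, a choice made after seeing the data. *Srebf1* lay at percentile 80.1 in the untreated and, with an SD of 0.23, at 74.0 in the AAV cohort. *Mlxipl* lay at percentile 5.38 in the untreated (SD 0.30) and at 91.0 in the AAV cohort (SD 0.38). Within the WT AAV groups alone the SD of *Mlxipl* was 0.35, above that of *Elovl6*. These percentiles are descriptions, and *Scd2* is compared although its untreated mean was below 100 CPM.

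**Figure D3:**
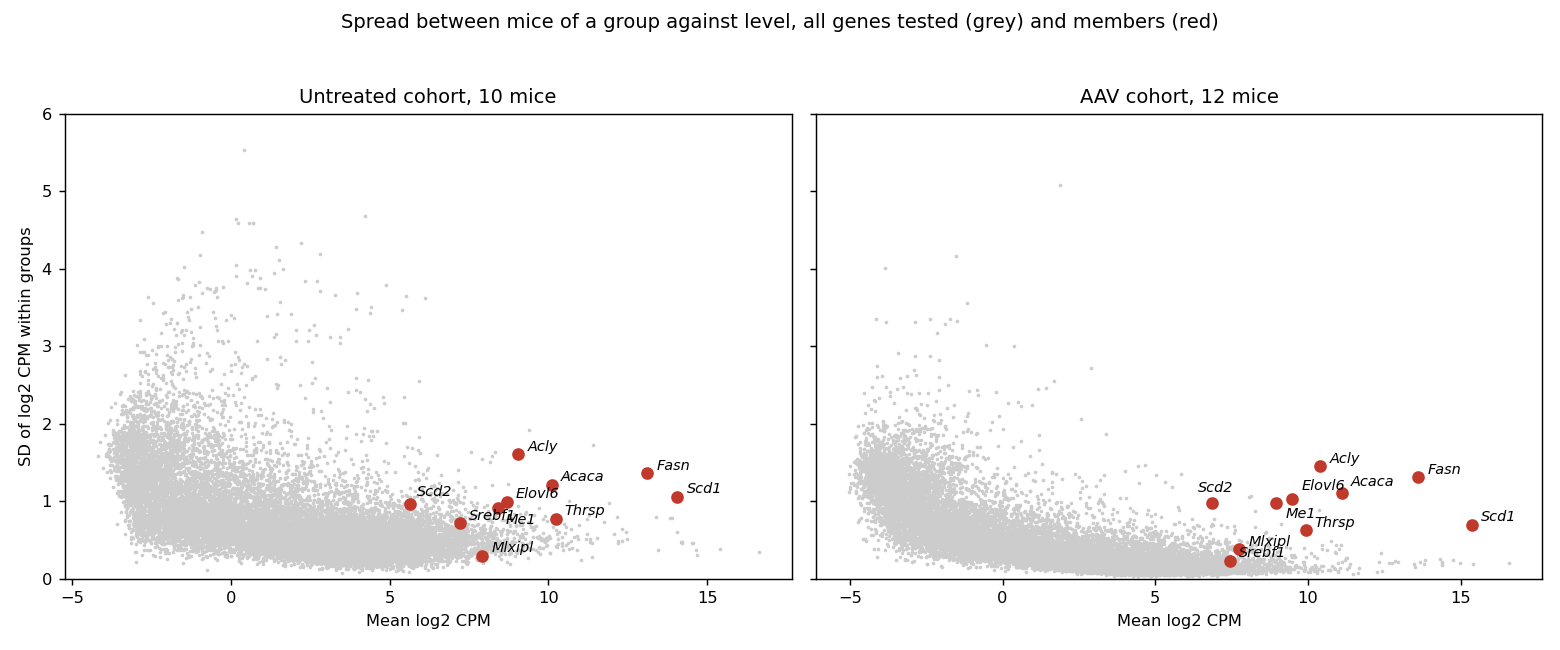
SD of log2 CPM between mice of a group (pooled over the groups of the cohort) against mean log2 CPM, for all genes tested (grey) and the members (red). Against genes with a mean of at least 100 CPM, the 7 enzymes lie at percentiles 90.4 to 98.1 in the untreated and 98.6 to 100 in the AAV cohort. *Mlxipl* lies at 5.38 and 91.0 and *Srebf1* at 80.1 and 74.0.

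The comparison of untreated KO with WT asks whether loss of CPEB2 was accompanied by other lipogenic transcript levels in BAT. No member passed an FDR of 0.05 in edgeR's quasi-likelihood test with Benjamini-Hochberg adjustment, where 0.0% of all genes did. DESeq2 and limma-voom also called none. At an unadjusted p under 0.05 the test held 1 member, *Elovl6*, against 15.9% of all genes, where DESeq2 held 2 (*Elovl6* and *Acly*) and limma-voom 0. *Elovl6* had the lower mean in KO, at 319.6 ± 158 against 745 ± 516 CPM (SD, n = 5), a log2 fold change of -1.22 with SE 0.52 (95% interval -2.36 to -0.08, adjusted p = 0.308 by edgeR). At the study's own threshold (2-fold or more, FDR up to 0.5), applied here to the edgeR fit, 2 members were lower. They were *Elovl6* and *Acly* (log2 fold change -1.46, 95% interval -3.12 to 0.21), while 844 of all genes (4.72%) were lower there. The study used iDEP with this threshold and reported fewer lower genes, and its list was not compared here. The count of lower members was 0 without WT mouse 1, WT mouse 2 or KO mouse 5 and 4 without WT mouse 3, WT mouse 5 or KO mouse 3. It was 1 without KO mouse 2, 3 without WT mouse 4 and 3 without the library labelled KO mouse 1.

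Values for the other 8 members were -0.94 for *Scd2*, -0.83 for *Acaca*, -0.64 for *Scd1*, -0.45 for *Me1*, 0.04 for *Mlxipl*, 0.14 for *Fasn*, 0.23 for *Srebf1* and 0.41 for *Thrsp*. Their 95% intervals included 0, and that of *Fasn*, from -1.36 to 1.64, left room for more than a 2-fold difference either way, whereas that of *Mlxipl* ran only from -0.48 to 0.55. The median over the 10 was -0.55, beside 0.04 over all genes tested. No member had KO and WT values that did not overlap, beside 1.4% of all genes.

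The median ran from -0.77 to -0.25 with 1 mouse left out and was -0.01 by limma-voom. WT mice 1 and 2 were the 2 highest mice for 6 of the 7 enzymes. Their column names carry lower numbers than those of the other untreated mice, but no label gives them as a batch. Leaving both out had to raise KO against WT and is given only as a description. It gave a median of 0.40, with *Fasn* at 1.46 and *Acly* at 0.21. With a covariate for whether a library held Y-linked transcripts, which WT mice 1, 2 and 4 and KO mouse 2 had, 8 members were above 0, *Acly* at 0.57 and *Elovl6* at -1.08. Genotype and presence of Y-linked transcripts were unevenly paired (3 of 5 WT against 1 of 5 KO libraries), and neither fit called a member.

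**Figure D4:**
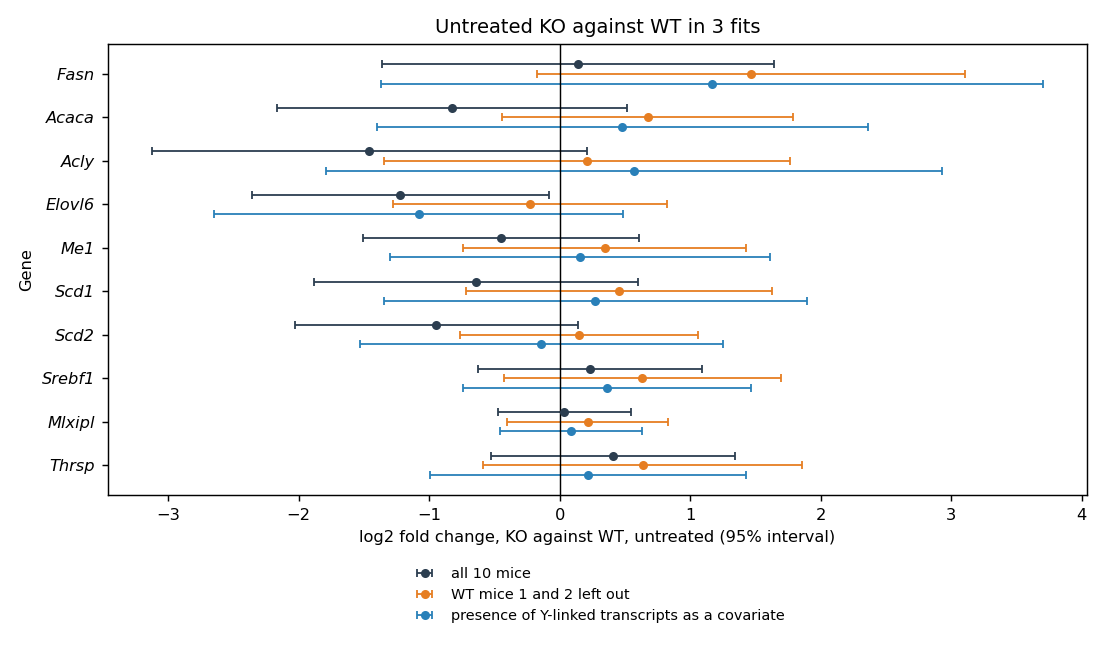
log2 fold change of each member, untreated KO against WT, with 95% intervals (bars), from all 10 mice, after leaving out WT mice 1 and 2, and with a covariate for Y-linked transcripts. Acly moves from -1.46 to 0.21 and 0.57, and the intervals of the latter 2 fits all include 0. Leaving out WT mice 1 and 2 had to raise the enzymes in KO against WT.

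In the AAV cohort the comparisons ask how genotype and PRDM16 delivery went with these levels. No member passed an FDR of 0.05 in any of the 8 comparisons by edgeR, DESeq2 or limma-voom, and none passed an unadjusted p under 0.05 by edgeR or DESeq2, while limma-voom held 1 there, lower for KO against WT with AAV-PRDM16. The comparisons share mice. At that unadjusted p stood 9.18% of all genes for KO against WT with AAV-GFP, 13.7% with AAV-PRDM16 and 18.3% averaged over both viruses. It was 7.29% for AAV-PRDM16 against AAV-GFP in WT, 6.41% in KO and 9.09% averaged over both genotypes, 7.93% for KO + AAV-PRDM16 against WT + AAV-GFP and 3.19% for the interaction. Of all genes, 0.0529% passed the FDR for KO against WT with AAV-GFP and 0.0476% with AAV-PRDM16. The share was 2.18% for KO against WT averaged over both viruses. For AAV-PRDM16 against AAV-GFP it was 0.037% averaged over both genotypes and 0.0% within each genotype. It was 0.00529% for KO + AAV-PRDM16 against WT + AAV-GFP and 0.0% for the interaction. No member had groups that did not overlap in any of the 5 pairs of groups. Of all genes, 13.4% did for KO against WT with AAV-GFP, 22.8% with AAV-PRDM16, 14.2% for AAV-PRDM16 against AAV-GFP in WT, 9.43% in KO and 13.2% for KO + AAV-PRDM16 against WT + AAV-GFP. At the study's threshold limma-voom put 1 member, *Scd2*, higher for KO against WT with AAV-GFP and edgeR none, where 1.43% of all genes were higher by edgeR.

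Averaged over both viruses, KO against WT gave log2 fold changes of -0.18 for *Fasn* (95% interval -1.35 to 0.98), 0.15 for *Acaca*, 0.16 for *Acly* (-1.15 to 1.46), 0.05 for *Elovl6*, 0.20 for *Me1*, 0.14 for *Scd1* and 0.53 for *Scd2* (-0.40 to 1.46). The regulators were at -0.20 for *Srebf1* (-0.46 to 0.06), -0.00 for *Mlxipl* and -0.33 for *Thrsp*, and the median was 0.10, beside 0.01 over all genes. *Srebf1* had the narrowest interval and the smallest adjusted p of the members, 0.423 by edgeR. The sign of this median was not stable. Without KO + AAV-GFP mouse 3 it was 0.31 and without KO + AAV-PRDM16 mouse 3 it was 0.27, whereas without KO + AAV-PRDM16 mouse 2, KO + AAV-GFP mouse 2 or WT + AAV-PRDM16 mouse 1 it was -0.21, -0.09 and -0.03. With all 12 mice it was -0.17 under the replicate block and -0.24 with GC content and length trend removed as well.

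For AAV-PRDM16 against AAV-GFP averaged over both genotypes all 10 values were below 0, from -0.43 for *Acly* (95% interval -1.73 to 0.88) to -0.03 for *Srebf1* (-0.29 to 0.24), with a median of -0.17 beside -0.01 over all genes. Every interval included 0. After removal of the trend in GC content and length 2 of the 10 were above 0, and without KO + AAV-GFP mouse 2 there were 4, with a median of -0.02. Without KO + AAV-GFP mouse 3 the median was -0.41 and without KO + AAV-PRDM16 mouse 2 it was -0.48. The effect of PRDM16 within each genotype had a median of -0.09 in WT and -0.30 in KO mice, groups that overlapped for every member. The WT median was 0.11 without WT + AAV-GFP mouse 1, 0.06 without WT + AAV-PRDM16 mouse 1 and 0.02 with GC content and length trend removed. The KO median stayed below 0 but was -0.57 by limma-voom, -0.02 without KO + AAV-GFP mouse 2 and -0.92 without KO + AAV-PRDM16 mouse 2. The interaction of genotype and virus ran from -0.69 for *Me1* (-2.50 to 1.13) to 0.34 for *Mlxipl*, with an adjusted p of 0.9998 for all by edgeR. The widest interval of the cohort's interaction values spanned 5.23 log2 units.

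KO + AAV-PRDM16 against WT + AAV-GFP, the comparison in which the viral PRDM16 meets the loss of CPEB2, gave values from -0.45 for *Thrsp* (95% interval -1.33 to 0.43) to 0.42 for *Scd2* (-0.89 to 1.73), with a median of -0.20. That median was 0.06 without WT + AAV-GFP mouse 1 and 0.13 without KO + AAV-PRDM16 mouse 3, and it was -0.77 without KO + AAV-PRDM16 mouse 2 and -0.41 under the replicate block.

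**Figure D5:**
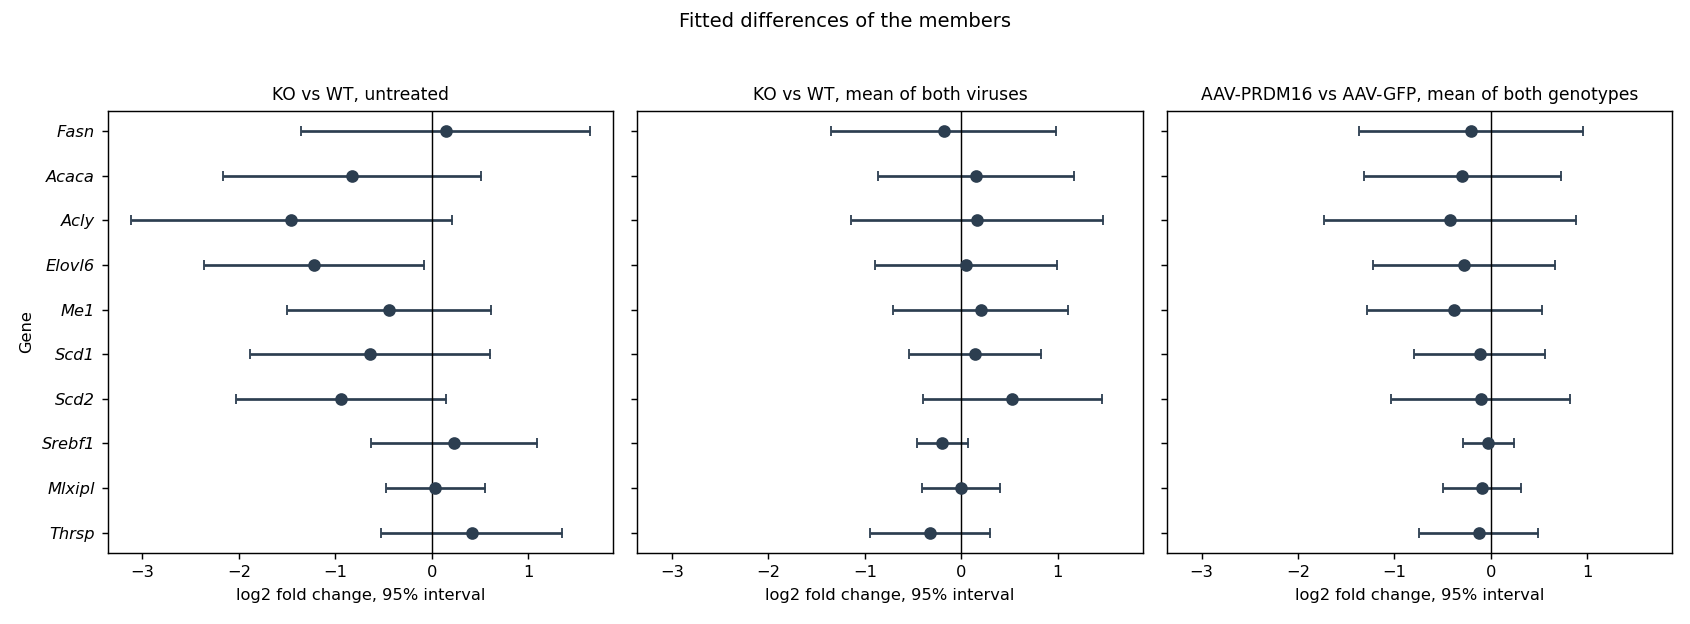
Fitted log2 fold change with its 95% interval (bars) for each member in 3 comparisons: untreated KO against WT (10 mice), KO against WT over both viruses and AAV-PRDM16 against AAV-GFP over both genotypes (12 mice each). Only the interval of *Elovl6* in the untreated mice does not reach 0, and the intervals of *Srebf1* and *Mlxipl* are the narrowest in the AAV cohort.

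Genes around the pathway were read from lists by role: 8 for citrate export and acetyl-CoA supply, 8 for NADPH supply, 13 for other elongation and desaturation, 11 for glycerolipid synthesis, 18 for other lipogenic regulators, 18 for sterol synthesis and uptake and 7 for glucose-responsive ChREBP targets (5 of them tested). In the untreated cohort none of them passed an FDR of 0.05 by edgeR. Their median log2 fold changes ran from -0.26 for sterol synthesis to 0.35 for elongation and desaturation. In the AAV cohort calls came only for KO against WT averaged over both viruses, 3 of the 79 distinct list genes tested (3.8%), beside 2.18% of all genes, a share near the background.

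*Pgls*, a 6-phosphogluconolactonase of the pentose phosphate pathway, was lower in KO mice, at 33.9, 37.1 and 43.0 CPM with AAV-GFP and 38.4, 43.0 and 45.8 with AAV-PRDM16 against 51.8, 54.4 and 49.6 and 67.7, 55.7 and 55.9 CPM in WT mice. The log2 fold change was -0.47 (SE 0.08, adjusted p = 0.0186 by edgeR), and KO values lay below all WT values. In the untreated cohort its value was 1.02 (95% interval -0.03 to 2.07), the opposite sign. *Fads2*, the delta-6 desaturase, was higher in KO mice, at 6.1 to 8.4 CPM against 3.4 to 5.3 CPM in WT, with a log2 fold change of 0.58 (SE 0.12, adjusted p = 0.0302 by edgeR). *Lpin1*, the phosphatidate phosphatase lipin 1, was higher in KO mice, at 479.5 to 847 CPM against 307 to 481 CPM in WT, with a log2 fold change of 0.65 (SE 0.15, adjusted p = 0.0475 by edgeR), and 1 KO value lay just inside the WT range. The untreated cohort had the opposite sign for *Lpin1* as well, at -0.31 (95% interval -0.94 to 0.32), and the same sign for *Fads2*, at 0.56 (-0.12 to 1.23). Over 20 alternatives each, *Pgls* stayed past the threshold in 17, *Fads2* in 8 and *Lpin1* in 6, with adjusted p of up to 0.0607, 0.0772 and 0.113 and no change of sign. The *Pgls* call was lost without WT + AAV-GFP mouse 2, KO + AAV-GFP mouse 2 or KO + AAV-PRDM16 mouse 1. The *Fads2* call held without WT + AAV-PRDM16 mouse 2, KO + AAV-GFP mouse 1 or KO + AAV-GFP mouse 3 and was lost without any other single mouse. The *Lpin1* call held without KO + AAV-GFP mouse 3 or KO + AAV-PRDM16 mouse 1 and was lost without any other.

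The most counted genes of these lists gave no call in either cohort. *Gpd1*, the glycerol-3-phosphate dehydrogenase of triglyceride synthesis, had a log2 fold change of 0.19 (95% interval -0.64 to 1.02) in untreated KO against WT and -0.05 (-0.41 to 0.31) over both viruses. *Dgat2*, which adds the last acyl chain of triglycerides, was at 0.23 (-0.48 to 0.94) and -0.05 (-0.38 to 0.27). *Tkt*, a transketolase of the pentose phosphate pathway, was at 0.52 (-0.49 to 1.52) and -0.25 (-0.95 to 0.45). *Acacb*, the acetyl-CoA carboxylase tied to the control of fatty acid oxidation, was at -0.19 (-1.13 to 0.75) and -0.21 (-0.66 to 0.24), and *Insig1*, which holds SREBP in the endoplasmic reticulum, was at -0.67 (-1.44 to 0.10) and -0.78 (-1.46 to -0.10). None of these 5 passed an FDR of 0.05 by edgeR.

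In the comparison of KO with WT over both viruses 4 of 10 macrophage markers (*Csf1r*, *Mrc1*, *C1qb* and *Itgam*) and 3 of 8 fibroblast markers (*Col1a1*, *Col1a2* and *Col3a1*) passed as higher and 3 of 10 brown fat markers (*Cidea*, *Cox8b* and *Cox7a1*) as lower. The summed macrophage markers were at 47.1 to 140 CPM in WT and 82.7 to 412 CPM in KO mice. Their part in the 3 lipid genes was not tested.

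The genes whose pattern was most like the mean standardised log2 CPM of the 10 members, outside all lists and among 17198 genes tested in both cohorts, were *Myo5b* (Pearson's r of 0.93 over 10 untreated and 0.93 over 12 AAV mice), *Gm5182* (0.92 and 0.98), *Ttc25* (0.92 and 0.96), *Parm1* (0.96 and 0.90), *Marc1* (0.89 and 0.93) and *Pygl* (0.89 and 0.97). *Gm5182* is a processed pseudogene on chromosome 12 whose transcript is 99.2% identical to that of *Acaca* over 6118 bases, and reads of the 2 may have been split or shared. *Ttc25* begins 17607 bases from *Acly* on chromosome 11. *Scd1* and *Scd2* transcripts are 88.0% identical over 1195 bases, and pseudogenes of *Elovl6* (97.4% over 805 bases) and *Me1* (98.5% over 1638 bases) also exist in the annotation, so counts of these members may hold a part from such copies.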

How the data were processed

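Total RNA of BAT was sequenced from 22 mice (SureSelect XT HS2 mRNA libraries). Per the submitters' processing notes the tools were bcl2fastq 2.20, Trimmomatic 0.36 and HISAT2, with build GRCm38.p6. The counter, its strand setting and the handling of molecular barcodes are not given in the sources used here. The authors deposited raw read counts per Ensembl gene in 2 tables, one per cohort. Groups came from the sample titles. All columns were matched to samples, and 55227 of 55487 identifiers matched GENCODE M21.

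Each table was fitted separately in R 4.3.3 with edgeR 4.0.16 (quasi-likelihood test, two-sided, TMM scaling, filterByExpr, prior count 2, Benjamini-Hochberg adjustment over all genes tested). The 4 AAV groups shared 1 fit. Calls used an FDR of 0.05, and the study's threshold (2-fold, FDR 0.5) was counted beside it. Alternatives were DESeq2 1.42.0, limma-voom (limma 3.58.1) with quality weights, RLE scaling, no filter, a replicate block, splines in GC content and length (4 degrees of freedom), a muscle marker score, presence of Y-linked transcripts (over 10 CPM), WT mice 1 and 2 left out (no label gives them as a batch), only the groups compared, and each library left out. The scripts were tested on simulated data. Genes named beside the members were, in each list, those called (at most 4) and the 3 most counted, and the 6 genes most like the members' mean profile. In the text, only some of the most counted genes are given. The members and lists were chosen with earlier results of these data known.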

Additional observations from a re-analysis of the deposited data

How the results depend on the processing

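No member passed an FDR of 0.05 or 0.1 in any comparison under any alternative run. The count of untreated members lower at the study's threshold (2 in the reported fit) was 0 under limma-voom, GC and length trend removal with or without the replicate block, WT mice 1 and 2 left out and the Y-linked covariate, 1 under the replicate block, and 0 to 4 with 1 mouse left out. limma-voom put 1 member (*Scd2*) past it for KO against WT with AAV-GFP. Correlations of same-numbered mice ran from -0.29 to 0.11 in the untreated and from -0.09 to 0.15 in the AAV cohort. These lay inside the ranges of differently numbered mice, -0.36 to 0.29 and -0.23 to 0.21. The replicate block called 0 members at an FDR of 0.05, as did the fit without it.

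Of 1850 log2 fold changes of members under alternatives, 202 had the other sign and 19 of these also moved by more than 1 SE. In untreated KO against WT these were, without WT mice 1 and 2, *Acaca* 0.67, *Acly* 0.21, *Me1* 0.34, *Scd1* 0.46 and *Scd2* 0.15. That omission, chosen from the values, had to raise these enzymes in KO against WT. With the Y-linked covariate the changes were *Acaca* 0.48, *Acly* 0.57, *Me1* 0.16 and *Scd1* 0.27, and with limma-voom *Acaca* 0.070. With GC and length trend removed they were *Srebf1* -0.28, *Mlxipl* -0.41 and *Thrsp* -0.074, and with the replicate block added -0.34, -0.39 and -0.19. In the AAV cohort they were *Mlxipl* 0.12 for KO against WT with AAV-GFP (limma-voom), *Srebf1* 0.11 for AAV-PRDM16 in KO without KO + AAV-GFP mouse 2 (from -0.24 to 0.11 with 1 mouse left out), and *Elovl6* -0.38 for KO against WT over both viruses with GC and length trend removed and the replicate block. The cause was not tested.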
